A study of Mus musculus with 59 samples.

Results

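The comparison described here is that of mice heterozygous for a Dyrk1a mutation with wild-type mice, all given fluoxetine, in the prefrontal cortex. It rests on 19 of the 59 libraries of the series: 10 heterozygous (5 females and 5 males) and 9 wild type (5 females and 4 males), chosen by genotype and drug, with sex kept as a block in the comparison of genotypes. The heterozygous mice carry the allele Dyrk1a+/I48X, whose name denotes a premature stop codon, and all mice are labelled C57BL/6J. Dams were dosed while nursing, so that pups took up fluoxetine between postnatal days 3 and 24, and tissue was taken at day 25, so no untreated animal stands in the comparison itself. The 20 vehicle and 20 lithium mice of both genotypes (10 of each) are used only to show where the fluoxetine mice differ from them. Litters are not named in the labels. Pups of 1 dam share her drug. The p-values take the observed variation among animals as the error and treat the animals as independent. Without litter labels this cannot be checked.

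DYRK1A is a dosage-sensitive protein kinase that acts in neurons and their progenitors. It works with the scaffold protein DCAF7, assembles the DREAM complex that holds cells out of division, and counters calcineurin signalling by phosphorylating NFAT factors. Loss of a copy in people causes a syndrome of intellectual disability, autistic traits and small head size. Fluoxetine blocks the serotonin transporter, prolongs serotonin signalling and, given early in life, reaches the cortex while its synapses are being built.

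Library totals ran from 24435922 to 32037662 counts, with a median of 27231915. Levels are normalised counts, and differences are log2 fold changes, heterozygous over wild type, on the log2(value + 1) scale with their standard error after ±. Neuron markers of the labelled tissue were present in each library, among them Slc17a7, the vesicular glutamate transporter of cortical excitatory cells, at 34060 to 55403 normalised counts. Heterozygous male replicates 3 and 4 stood apart from the other 17 libraries. Of the genes tested, 20.5% were higher in both than in any other library and 18.1% lower, and the first principal component, with 34.3% of the variance, separated this pair. Comparisons are therefore given with all 19 libraries and again with the 17 that remain without them.

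Dyrk1a itself (ENSMUSG00000022897, chromosome 16, 94570010 to 94695517, coordinates here and below from GRCm38) did not show reduced RNA in the mutants. Heterozygous females had 2182, 2206, 2281, 2328 and 2312 normalised counts against 2155, 2149, 2173, 2066 and 2215 in wild-type females. Heterozygous males had 2442, 2371, 4214, 3278 and 2368 against 2167, 2272, 2095 and 2151 in wild-type males. The males did not overlap, in females only the highest wild-type value reached into the heterozygous range, and the pair that stood apart held the highest values. The difference was 0.22 on the log2 scale by the exact permutation test within sex, 2-sided (p = 0.0036), and 0.10 without the pair (exact p = 0.00079). In the fit across all genes the same differences had limma adjusted p-values of 0.74 and 0.83. Gene-level counts do not separate transcripts of the mutant and the wild-type copy. Within 5000000 bases on either side of Dyrk1a, 70 other genes were tested. At an unadjusted p under 0.05, 0 of them were higher and 1 lower with 19 libraries, where 2.28% and 3.32% of all genes were, and 3 were higher and 2 lower with 17, where 2.64% and 3.2% were.

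Across the transcriptome few genes were called between the genotypes under fluoxetine. With all 19 libraries limma called 0 of 17400 genes (0%) at an adjusted p under 0.05, and edgeR also called 0 (1002 genes, 5.76%, at an unadjusted p under 0.05), while DESeq2 called 3 (0.0173%), Ucp2, Dlk1 and Gm38226. An unadjusted p under 0.05 was reached by 974 genes (5.6%), 396 higher (2.28%) and 578 lower (3.32%). Without heterozygous male replicates 3 and 4, limma called 1 of 17288 genes (0.00578%), Gm38226, which passed the filter on low values only through heterozygous libraries, and 1009 genes (5.84%) reached an unadjusted p under 0.05, 456 higher (2.64%) and 553 lower (3.2%). With the level of olfactory bulb markers, described below, as a covariate, limma called 1 gene with 19 libraries and 3 with 17. An unadjusted p under 0.05 was then reached by 1193 genes with 19 libraries and 2075 with 17. Without the covariate, the 95% interval of the log2 difference had a median half-width of 0.186 with 19 libraries and 0.134 with 17. This interval is for a single gene before adjustment, and larger differences, such as those of Ucp2 and Dlk1 below, also went uncalled by limma.

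Gm38226 (ENSMUSG00000103949, chromosome 9, 98771105 to 98771625) is a predicted locus with no assigned function, named here after its values were seen. The recovered counts in heterozygous females were 27, 11, 19, 0 and 18, those in heterozygous males 15, 7, 0, 0 and 31, and those in all 9 wild-type fluoxetine mice 0. It entered the fit only through heterozygous libraries, since no wild-type library reached the minimum level, so a difference was built into its selection. Its limma adjusted p was 0.024 in the 17 libraries and 0.74 in the 19. In the other mice it came and went without following genotype: 7 of 10 wild-type vehicle libraries held counts of it, against 3 of 10 heterozygous ones, and under lithium 3 of 10 and 4 of 10. At so few counts the fitted fold depends on the constant added before the log.

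**Figure D1:**
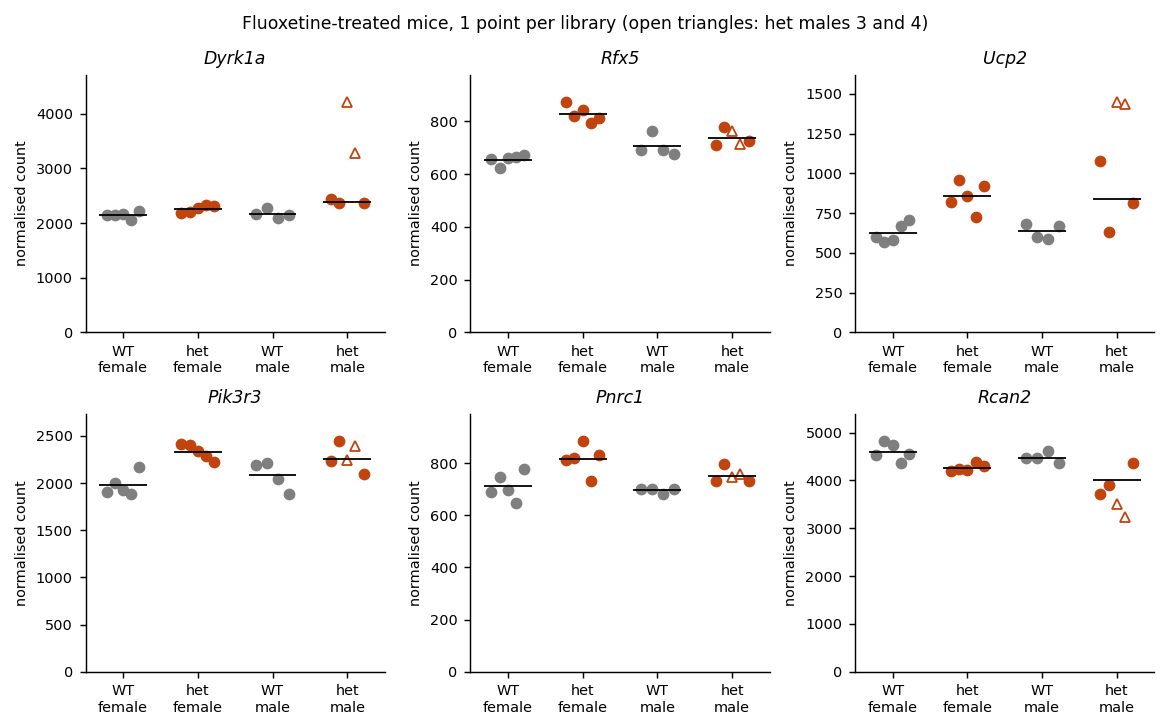
Normalised counts (vertical axis) of Dyrk1a and 5 genes with small p-values under fluoxetine in each library, by genotype and sex (horizontal axis; WT, wild type; het, heterozygous). Bars are group means without heterozygous males 3 and 4, which are drawn as open triangles; heterozygous females lie above all wild-type females for Rfx5, Ucp2 and Pik3r3.

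Among genes at or above the median level, those higher in heterozygous mice with the smallest p-values are given first. None passed limma's adjustment over both sexes. They were picked by p in these same animals, so agreement among the animals is part of the selection. This holds for the lower genes below too. Rfx5, a transcription factor of MHC class II promoters (chromosome 3, 94954075 to 94961561), had 873, 819, 845, 794 and 812 normalised counts in heterozygous females against 657, 622, 659, 663 and 672 in wild-type females. In males it had 709, 779, 763, 716 and 725 against 692, 765, 690 and 678, so the females were fully separated and the males overlapped. The difference was 0.21 ± 0.05 with 19 libraries (limma adjusted p = 0.74) and 0.23 ± 0.05 with 17 (limma adjusted p = 0.44), and all 10 heterozygous mice lay above the wild-type mean of their sex.

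Ucp2, a carrier of the inner mitochondrial membrane (chromosome 7, 100493337 to 100502020), had 819, 962, 856, 726 and 918 normalised counts in heterozygous females against 599, 570, 580, 667 and 706 in wild-type females. Heterozygous males had 1077, 630, 1448, 1439 and 812 against 684, 598, 588 and 668. Only male replicate 2 fell within the wild-type range. The difference was 0.57 ± 0.13 with 19 libraries and 0.42 ± 0.08 with 17, and the omitted pair held the highest values (limma adjusted p = 0.74 and 0.44).

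Pik3r3, a regulatory subunit of phosphoinositide 3-kinase (chromosome 4, 116221618 to 116303056), had 2419, 2401, 2338, 2289 and 2224 normalised counts in heterozygous females against 1911, 1997, 1931, 1889 and 2175 in wild-type females. In males the values were 2231, 2442, 2245, 2398 and 2101 against 2187, 2212, 2043 and 1882. The difference was 0.19 ± 0.04 in both fits (limma adjusted p = 0.74 with 19 libraries and 0.68 with 17). Pnrc1, a nuclear receptor coactivator, differed by 0.16 ± 0.04 in both fits, with 731 to 883 normalised counts in heterozygous mice and 647 to 779 in wild-type mice. Arrdc3, an arrestin-domain adaptor that targets receptors for turnover, differed by 0.20 ± 0.05 in both, and Pnrc2, an mRNA decapping cofactor, by 0.09 ± 0.05 with 19 libraries and 0.13 ± 0.03 with 17. None of these passed limma's adjustment in either fit.

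On the lower side, Rcan2 (chromosome 17, 43801351 to 44039516), an inhibitor of calcineurin, had 4204, 4241, 4207, 4385 and 4296 normalised counts in heterozygous females against 4538, 4813, 4729, 4364 and 4543 in wild-type females. Heterozygous males had 3715, 3905, 3508, 3235 and 4372 against 4475, 4473, 4608 and 4353. All 10 heterozygous mice lay below the wild-type mean of their sex, and the ranges overlapped by 1 animal in each sex. The difference was -0.18 ± 0.05 with 19 libraries (limma adjusted p = 0.74) and -0.13 ± 0.03 with 17 (limma adjusted p = 0.83).

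Other leading lower genes were Celf6, Entpd4, Ttl, Syngr3, Gabrd and Sec14l2. Celf6, an RNA-binding splicing regulator, differed by -0.16 ± 0.04 with 19 libraries and -0.17 ± 0.04 with 17, from 436 to 502 normalised counts in heterozygous mice against 481 to 586. Entpd4, a Golgi nucleotidase, differed by -0.23 ± 0.06 and -0.21 ± 0.06, Ttl, the tubulin tyrosine ligase, by -0.18 ± 0.05 in both, and Syngr3, a synaptic vesicle protein, by -0.14 ± 0.04 and -0.11 ± 0.04. Gabrd, the delta subunit of extrasynaptic GABA-A receptors, differed by -0.41 ± 0.13 with the pair, whose values were 690 and 642, and by -0.23 ± 0.06 without it. Sec14l2, a lipid transfer protein, differed by -0.12 ± 0.03 with 17 libraries, where no heterozygous animal exceeded 1104 and no wild-type animal was under 1101. None of these passed the test in either fit.

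Dlk1, an imprinted gene for a Notch-family transmembrane protein, was called by DESeq2 in the 19 libraries and was chosen after its values were seen. It had 35, 24, 34, 34 and 57 normalised counts in heterozygous females against 9, 13, 10, 13 and 32 in wild-type females, and 28, 26, 68, 95 and 201 in heterozygous males against 21, 17, 8 and 21. The limma difference was 1.59 ± 0.34 with 19 libraries and 1.45 ± 0.36 with 17, with adjusted p-values of 0.74 and 0.83. DESeq2 without the pair called 4 genes (0.0231%): Rfx5, Ucp2, Gm38226 and, lower, Neurog2, a proneural transcription factor at 8 to 22 normalised counts in the 8 heterozygous mice against 17 to 34 in wild-type mice. Neurog2 reached 125 in heterozygous male replicate 3.

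The same genotype contrast in the vehicle and lithium mice, which share no animal with the fluoxetine mice, gave differences of the same sign for most of these genes. Rfx5 differed by 0.32 ± 0.05 under vehicle (limma adjusted p = 0.00066) and 0.24 ± 0.05 under lithium (adjusted p = 0.068). Pnrc1 differed by 0.27 ± 0.04 under vehicle (limma adjusted p = 0.00061) and 0.24 ± 0.04 under lithium (adjusted p = 0.0091), where limma called 2 of 17901 genes (0.0112%). Ucp2 differed by 0.32 ± 0.09 (limma adjusted p = 0.025) and 0.34 ± 0.09 (adjusted p = 0.18), and Pik3r3 by 0.25 ± 0.05 (adjusted p = 0.016) and 0.22 ± 0.05 (adjusted p = 0.17).

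Ttl, lower under fluoxetine, differed by -0.28 ± 0.09 under vehicle (limma adjusted p = 0.034) and -0.25 ± 0.09 under lithium (adjusted p = 0.23). Rcan2 differed by -0.08 ± 0.05 under vehicle (limma adjusted p = 0.20) and -0.20 ± 0.05 under lithium (adjusted p = 0.090). Arrdc3 had smaller values elsewhere, 0.08 ± 0.05 under vehicle and 0.06 ± 0.05 under lithium (limma adjusted p = 0.24 and 0.48). Dlk1 did as well, at 0.29 ± 0.35 under vehicle and 0.36 ± 0.35 under lithium (limma adjusted p = 0.61 and 0.58). Tests of the difference between drugs called none of these genes.

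**Figure D2:**
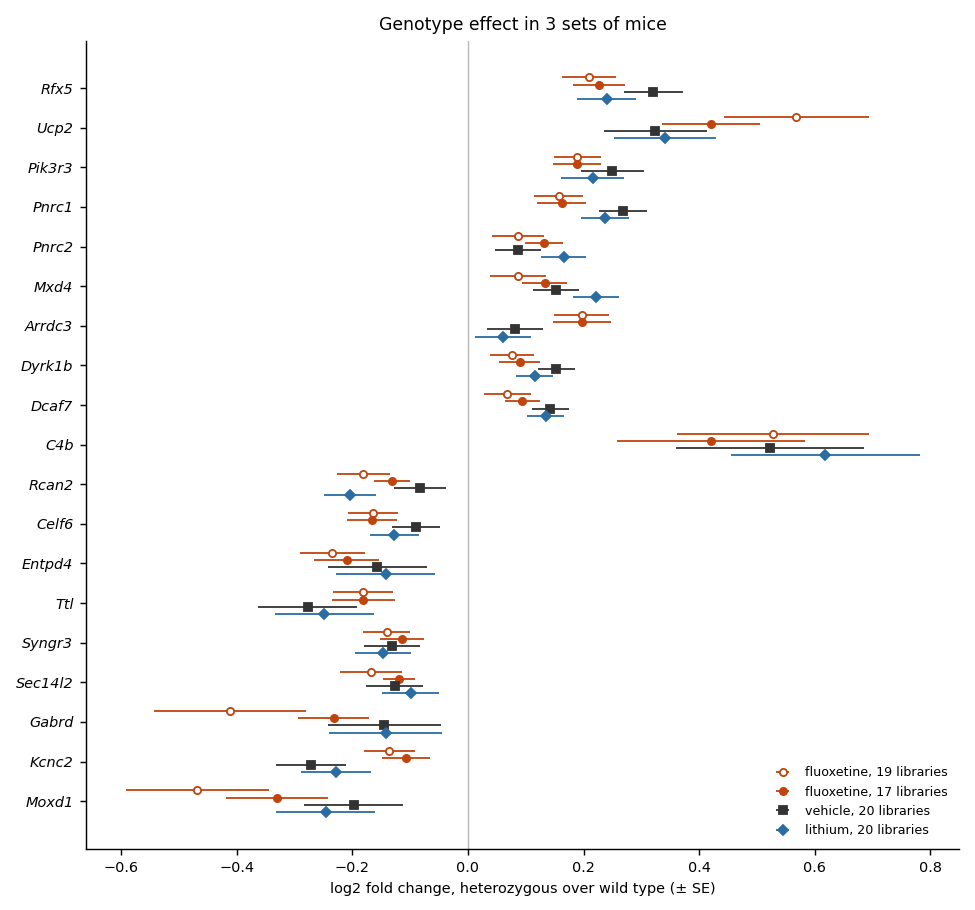
Log2 fold change of heterozygous over wild-type mice (horizontal axis, ± SE) for 19 named genes (vertical axis) under fluoxetine with 19 and with 17 libraries, under vehicle and under lithium. The genes were picked by hand from the named genes with results of these data known. Their shared sign in the 4 estimates is therefore no measure of agreement among genes. Of genes at an unadjusted p under 0.05 with 17 libraries, 74.3% of the higher and 73.1% of the lower had the same sign under vehicle. Rfx5 lies between 0.21 and 0.32.

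This agreement in sign extended beyond the named genes. Of the 456 genes higher at an unadjusted p under 0.05 in the 17 fluoxetine libraries, 339 (74.3%) had a difference above 0 under vehicle and 355 (77.9%) under lithium, while 8850 and 8594 of all 17901 genes tested did. Of the 553 lower genes, 404 (73.1%) lay below 0 under vehicle and 452 (81.7%) under lithium, against 50.6% and 52.0% of all genes. Among the 456, 44 were called higher under vehicle (9.65%, against 6.03% of all genes), and among the 553, 67 were called lower there (12.1%, against 7.12%). With all 19 fluoxetine libraries the shares on the same side under vehicle were 68.7% of 396 and 72.1% of 578.

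Read the other way, the vehicle comparison called 2353 of 17901 genes (13.1%; 4086 of 17861, 22.9%, when the fluoxetine pair is left out of the shared estimate of spread), and their differences under fluoxetine were small. Of 1079 genes called higher under vehicle, 1077 were tested under fluoxetine, and 543 lay above 0 with 19 libraries and 748 with 17. Markers of the olfactory bulb, described below, moved with the vehicle contrast. Of 19, 14 were called higher there, with a median of 1.42 against 0.96 under lithium. The vehicle calls given here are without adjustment for these markers. The median difference of the genes called higher was 0.32 under vehicle and 0.03 in the 17 fluoxetine libraries. Both sets were selected by their vehicle values, which enlarges the vehicle medians, so the medians do not measure a loss of effect under fluoxetine. Of 1274 called lower, 959 of the 1267 tested lay below 0 with 17 libraries, with medians of -0.24 under vehicle and -0.04 under fluoxetine. None of either set was called under fluoxetine by limma. With the olfactory bulb list level as a covariate and without the pair, 845 of 1077 and 1030 of 1267 kept the vehicle side, and 2 were called. On that side 207 and 331 had an unadjusted p under 0.05, against 44 and 67 without the covariate. Over all 17288 genes tested the covariate also raised that number, from 1009 (5.84%) to 2075.

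**Figure D3:**
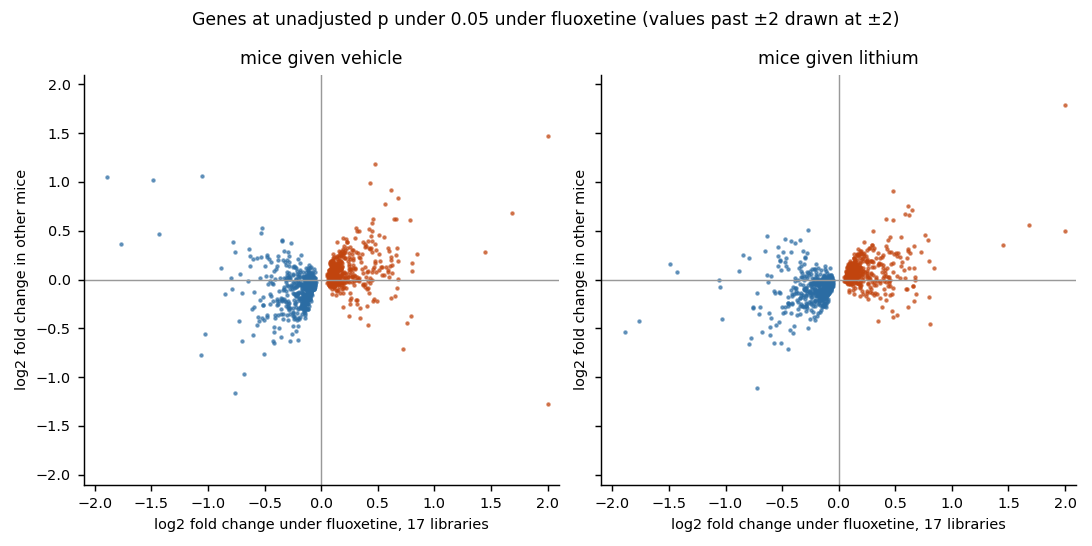
Log2 fold change under fluoxetine with 17 libraries (horizontal axis) against that under vehicle (left) and lithium (right) in other mice (vertical axis), for the 1009 genes at an unadjusted p under 0.05 under fluoxetine. Genes higher under fluoxetine (red) lie mostly above 0 in the other mice, and genes lower under fluoxetine (blue) mostly below.

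Female and male mice were then taken apart. In females limma called Rfx5 (0.34 ± 0.05, adjusted p = 0.022) as 1 of 17400 genes (0.00575%), and without the male pair, which shares the estimate of spread, it called Rfx5 and Rec8, 2 of 17288 (0.0116%). Unadjusted p-values under 0.05 numbered 1333 (7.66%) in the first fit and 2948 (17.1%) in the second. In males it called 0 genes in both, with 3307 (19%) at an unadjusted p under 0.05 with the pair and 886 (5.12%) without it. The test of the difference between the sexes called 0 genes in either fit, as did edgeR, and 3161 genes (18.2%) with the pair and 2546 (14.7%) without it had an unadjusted p under 0.05. These counts turned on 1 animal: with the pair kept and heterozygous male replicate 2 left out, 1221 genes were called in males and 1138 between the sexes. Fitting all 59 libraries gave 1620 calls in males, 933 higher and 687 lower, and the same fit without the pair gave 0, with 571 at an unadjusted p under 0.05. The single call in females was lost when any of 9 of the 10 female libraries was left out, all but heterozygous female replicate 4, and in the fit of all 59 libraries.

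The groups also differed in markers of the olfactory bulb, a region next to the dissected cortex. On a scale of mean log2 deviation over 19 marker genes, heterozygous females lay between 0.75 and 1.66 and wild-type females between 0.08 and 1.13. Heterozygous male replicate 2 was at 1.16, the other 4 heterozygous males were between -1.47 and -0.55, and wild-type males were between 0.66 and 1.33. Doc2g, a marker of mitral and tufted cells, had 145 and 164 normalised counts in heterozygous males 3 and 4 and 1242 to 3634 in wild-type mice. In such bulk tissue fewer cells of a type and less RNA per cell cannot be told apart. All 19 markers lay above 0 in females, with a median of 0.52, and 2 of 19 in the 3 remaining males, with a median of -1.14, and none was called. Without the pair, the first principal component (16.6% of the variance) followed this level across the 17 libraries, with |r| = 0.93 and |rho| = 0.83, given as a description over libraries of the same tissue. With the bulb level as a covariate, genes at an unadjusted p under 0.05 numbered 244 in males and 301 between the sexes with the pair, and 853 and 978 without it.

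Rec8, a meiotic cohesin subunit (chromosome 14, 55618037 to 55625395), had 290, 300, 252, 182 and 250 normalised counts in heterozygous females against 111, 126, 120, 172 and 108 in wild-type females. In males it had 130, 148, 71, 100 and 107 against 167, 169, 148 and 136. The females did not overlap. The difference was 0.996 ± 0.178 in females (limma adjusted p = 0.20, and 0.018 without the male pair) and -0.51 ± 0.19 in males (adjusted p = 0.22). The male value includes the pair, whose counts of 71 and 100 were the lowest. Female minus male came to 1.51 ± 0.26, or 1.27 ± 0.22 without the pair (limma adjusted p = 0.15 and 0.22). Over both sexes Rec8 was higher in heterozygous mice under each drug. The difference was 0.478 under fluoxetine with 17 libraries, 1.188 under vehicle and 0.911 under lithium. Rec8 moved in the direction of the bulb markers in each sex, and the differences given for it are without adjustment for those markers.

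Sst, the interneuron peptide somatostatin, had 2305, 1954, 2478, 2980 and 2603 normalised counts in heterozygous females and 3007, 3208, 3632, 3619 and 3506 in wild-type females, with no overlap. In males it had 3109, 2534, 4131, 4071 and 3446 against 2899, 2713, 3016 and 2922. The female difference was -0.47 ± 0.12 (limma adjusted p = 0.61) and the male difference without the pair 0.06 ± 0.12 (adjusted p = 0.99). Under vehicle, over both sexes, it was -0.56 ± 0.13 (limma adjusted p = 0.021).

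Activity-dependent genes leaned opposite ways in the sexes without a call. Bdnf, the growth factor induced by neuronal activity, had 633, 737, 764, 794 and 639 normalised counts in heterozygous females against 1077, 993, 1027, 887 and 720 in wild-type females. In males it had 1391, 986, 2579, 1629 and 917 against 941, 828, 917 and 907. Arc, an immediate early gene of active synapses, ran from 1448 to 2115 in heterozygous and 1710 to 3322 in wild-type females, and from 1306 to 3049 in heterozygous and 1120 to 1675 in wild-type males. Female minus male was -1.03 ± 0.29 for Bdnf and -1.12 ± 0.29 for Arc (limma adjusted p = 0.15 each), and -0.66 ± 0.18 and -0.98 ± 0.31 without the pair (adjusted p = 0.22 and 0.23). Over the 39 immediate early genes tested, 8 lay above 0 in females and 31 in males without the pair, with medians of -0.15 and 0.14. Of all genes, 48.7% and 52.8% lay above 0. Genes of a list are not replicate animals. Heterozygous males 1, 2 and 5 had list levels of -0.27, 0.08 and -0.27, against -0.41 to -0.17 in wild-type males, so only replicate 2 lay above that range. Heterozygous females were at -0.42 to -0.10 and wild-type females at -0.18 to 0.13.

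**Figure D4:**
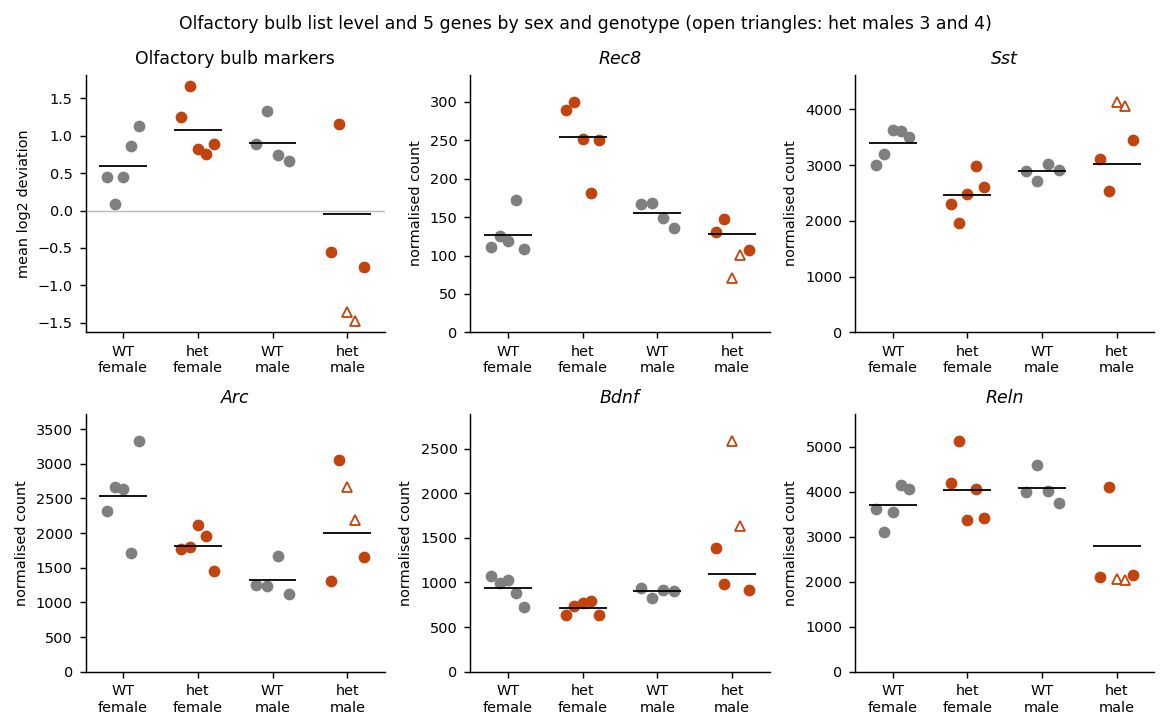
Olfactory bulb list level (mean log2 deviation) and normalised counts of Rec8, Sst, Arc, Bdnf and Reln (vertical axes) in each library, by genotype and sex (horizontal axis; WT, wild type; het, heterozygous). Bars are means without heterozygous males 3 and 4 (open triangles); 4 of the 5 heterozygous males have low bulb levels and Reln counts of 2042 to 2145, and male replicate 2 has 4107.

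The genotype difference under fluoxetine was also set against that under vehicle and under lithium by the interaction of genotype and drug. Limma called 0 of 17901 genes in both tests, and an unadjusted p under 0.05 was reached by 3917 (21.9%) against vehicle and 2339 (13.1%) against lithium. Without the pair it again called 0, with 2980 (16.7%) and 1105 (6.19%), and edgeR called 0 in both tests with all libraries. With the bulb level as a covariate the counts at an unadjusted p under 0.05 were 1363 against vehicle and 947 against lithium, or 1360 and 671 without the pair. Leaving out heterozygous fluoxetine male replicate 2 in place of the pair gave 1277 calls against vehicle and 5 against lithium. That animal is the male with bulb markers as high as in wild-type mice.

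Among the smallest p-values against vehicle was that of Ccl28, a mucosal chemokine, at 1.25 ± 0.26 (limma adjusted p = 0.10). Ccl28 had 107, 99, 62, 128 and 115 normalised counts in heterozygous females against 51, 85, 124, 119 and 99 in wild-type females, and 91, 140, 288, 191 and 89 against 56, 76, 68 and 75 in males. Without the pair the fluoxetine minus vehicle difference of Ccl28 was 1.02 ± 0.24 (limma adjusted p = 0.17). The genotype difference under fluoxetine alone ran from 0.31 to 0.68 over all settings, so part of these values came from the vehicle mice. Ndn, an imprinted gene of neuronal survival, lower under vehicle at -0.37 ± 0.07 (limma adjusted p = 0.0088), was at -0.09 ± 0.05 under fluoxetine and -0.09 ± 0.07 under lithium. Its fluoxetine minus vehicle difference was 0.28 ± 0.10 (limma adjusted p = 0.13). Against lithium the smallest p belonged to Tmem144, a gene for a transmembrane protein, at 0.43 ± 0.09 (limma adjusted p = 0.24). It had 187 to 254 normalised counts in heterozygous and 154 to 190 in wild-type females, and 209 to 259 and 188 to 199 in males, with no overlap in males.

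The gene groups that bear on DYRK1A and on fluoxetine were counted next. No list had a called member over both sexes, and medians are set beside that of all genes, which lay within 0.01 of 0 in the fits over both sexes and in those of females and males. Of all genes, 49.9% lay above 0 with 19 libraries and 48.8% with 17. Of 37 genes of DYRK kinases, their scaffold and substrates, 4 were higher and 3 lower at an unadjusted p under 0.05 with 17 libraries, where 2.64% and 3.2% of all genes were. Dcaf7, the scaffold, differed by 0.09 ± 0.03 and Dyrk1b, the closest paralogue of Dyrk1a, by 0.09 ± 0.04 (limma adjusted p = 0.83 each). Under vehicle both were called higher, at 0.14 ± 0.03 (limma adjusted p = 0.016) and 0.15 ± 0.03 (adjusted p = 0.010).

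Calcineurin and NFAT genes had a median of -0.04 with 17 libraries, with 5 of 17 above 0. Rcan2 led the list, Rcan1, the paralogue induced by calcineurin itself, differed by -0.08 ± 0.06, and Calm3, a calmodulin gene, by -0.21 ± 0.06 in females (limma adjusted p = 0.61) and 0.06 ± 0.07 in the 3 remaining males. The 31 DREAM and G1 genes had a median of 0.00, and 3 were higher and 0 lower at an unadjusted p under 0.05. Cdkn1b, the cyclin-dependent kinase inhibitor p27, differed by 0.09 ± 0.04 (limma adjusted p = 0.83), and by 0.17 ± 0.05 in females (adjusted p = 0.61).

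Serotonin genes showed little difference between genotypes in fluoxetine mice. Of 20 tested, 0 were higher and 1 lower at an unadjusted p under 0.05 with 17 libraries, and the median was -0.02. The lower member was Htr3a, the ion channel receptor of a class of interneurons, with 185 to 236 normalised counts in the 8 heterozygous mice against 192 to 276 in wild-type mice (-0.22 ± 0.07, limma adjusted p = 0.83). Htr1a, the inhibitory receptor and autoreceptor, had 388, 438, 537, 562 and 543 in heterozygous females against 522, 668, 634, 539 and 529 in wild-type females. In males it had 487, 417, 217, 293 and 616 against 468, 436, 553 and 538. The difference was -0.30 ± 0.14 with 19 libraries and -0.14 ± 0.09 with 17 (limma adjusted p = 0.74 and 0.83). Htr2a, the main excitatory cortical receptor, differed by -0.02 ± 0.09, Htr2c by 0.04 ± 0.24 and Maoa, which degrades serotonin, by 0.03 ± 0.03 with 17 libraries. Htr1b, a presynaptic receptor, was called lower under vehicle at -0.56 ± 0.15 (limma adjusted p = 0.026). Under fluoxetine it differed by 0.05 ± 0.12 with 17 libraries, and its value ran from -0.14 to 0.10 over all settings. The difference between the drugs, with the pair included, was 0.49 ± 0.22 (limma adjusted p = 0.19). The transporter gene Slc6a4, the drug's target, was not analysed here.

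Synaptic lists had medians a little below 0 in heterozygous females, with no member called. The bulb markers moved with them: all 19 lay above 0 in females, and heterozygous females 1 and 2, at 1.24 and 1.66 the highest in bulb level of that group, had its lowest presynaptic levels (-0.15 each), and the part of these markers was not tested. Of 46 presynaptic release genes, 4 lay above 0 in females, with a median of -0.12, and 36 in the 3 remaining males, with a median of 0.03. Of 48 excitatory postsynaptic genes, 11 lay above 0 in females (median -0.11) and 32 in males (median 0.04). All genes were above 0 in 48.7% of cases in females and 52.8% in males without the pair. Stx1a, the syntaxin of vesicle fusion, had 7401, 7262, 7801, 9101 and 8257 normalised counts in heterozygous females against 9394, 9799, 9184, 10420 and 8267 in wild-type females. Its difference was -0.24 ± 0.09 in females and -0.32 ± 0.10 under vehicle (limma adjusted p = 0.61 and 0.039). Rab3a, a vesicle GTPase, differed by -0.14 ± 0.05 in females and -0.03 ± 0.06 in the remaining males. No member was called under fluoxetine.

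Interneuron and GABA synapse genes had a median of -0.12 with 19 libraries, where 5 of 43 lay above 0, and of -0.04 with 17, where 11 did. Both omitted libraries were lower than any other for 22 of the 43, where they were for 18.1% of all genes. Kcnc2, the Kv3 potassium channel of fast-spiking cells, had 2103 to 2363 normalised counts in heterozygous females against 2275 to 2834 (-0.17 ± 0.06, limma adjusted p = 0.61), and was called lower under vehicle at -0.27 ± 0.06 (adjusted p = 0.016). Reln, the secreted glycoprotein of layer 1 cells that mitral cells of the bulb also express, had 2104, 4107, 2057, 2042 and 2145 in heterozygous males against 4000, 4588, 4009 and 3745. The single high male was the one with high bulb markers. Oxidative phosphorylation genes lay below 0 in 84 of 93 cases with 17 libraries, with a median of -0.04, and 4 were lower at an unadjusted p under 0.05. Of all genes, 51.2% lay below 0 there and 3.2% were lower at such a p. By sex, 85 of the 93 lay below 0 in females (median -0.06), against 51.3% of all genes. In the 3 remaining males 50 of the 93 lay above 0 (median 0.00), against 52.8% of all genes.

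Complement component C4b, a protein of the classical cascade, led the complement list. It had 680, 562, 795, 489 and 1009 normalised counts in heterozygous females against 605, 321, 420, 457 and 483 in wild-type females, and 708, 653, 810, 1010 and 352 against 463, 497, 487 and 533 in males. The difference was 0.53 ± 0.17 with 19 libraries and 0.42 ± 0.16 with 17 (limma adjusted p = 0.74 and 0.83), with male replicate 5 below every wild-type male. It was called higher under vehicle, at 0.52 ± 0.16 (limma adjusted p = 0.035), and was at 0.62 ± 0.16 under lithium (adjusted p = 0.18). C4b shares sequence with its near copy C4a, so its counts are uncertain. Over the 25 complement genes the median was 0.01 with 17 libraries, with 13 above 0. Of 40 interferon-stimulated genes 31 lay above 0, with a median of 0.06, and 0 reached an unadjusted p under 0.05. All genes lay above 0 in 48.8% of cases with 17 libraries, and 5.84% reached such a p.

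Regulators of chromatin and transcription linked to autism lay above 0 in 45 of 63 cases with 17 libraries. In that fit 48.8% of all genes lay above 0, and 2.64% were higher and 3.2% lower at an unadjusted p under 0.05. The median of the 63 was 0.03 and none reached such a p. Under vehicle 18 were called higher and 3 lower, where 6.03% and 7.12% of all genes were. Cholesterol synthesis genes lay above 0 in 10 of 40 cases (median -0.03), with 4 lower at an unadjusted p under 0.05. Cortical neuropeptides had 8 of 30 above 0 (median -0.09), with 1 higher and 5 lower. Among 42 genes of IGF, insulin and mTOR signalling, 2 were higher and 3 lower. Sesn3, a sestrin that restrains mTOR, was among the higher ones at 0.12 ± 0.04 (limma adjusted p = 0.83), with 0.00 ± 0.04 under vehicle. Mxd4, a repressor of the MYC network chosen after its values were seen, differed by 0.13 ± 0.04 with 17 libraries and was called under lithium at 0.22 ± 0.04 (limma adjusted p = 0.0091). Moxd1, a monooxygenase-like protein chosen likewise, had 74 to 160 normalised counts in heterozygous and 141 to 193 in wild-type mice. Its difference was -0.47 ± 0.12 with 19 libraries (limma adjusted p = 0.74) and -0.33 with 17. The omitted pair had the lowest recovered counts of Moxd1, 72 and 73.

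Heterozygous male replicates 3 and 4 differed from their group in defined gene sets. For the 37 glucocorticoid receptor and induced genes their list levels were 1.17 and 0.35, and the other 17 libraries lay between -0.13 and 0.17. Fkbp5, a chaperone induced by glucocorticoids, had 8496 and 3668 normalised counts in them and 979 to 1352 elsewhere. Scg2, a neuropeptide precursor of secretory granules, had 31400 and 19490 and at most 8498 elsewhere. Levels of heat shock and cell stress genes were 0.70 and 0.21 (others -0.13 to 0.05), and those of cortical neuropeptides 0.79 and 0.48 (others -0.08 to 0.14). Myelinating oligodendrocyte genes were at -0.56 and -0.34, below the range of the others (-0.27 to 0.40). Fkbp5 differed between genotypes by 0.48 ± 0.30 with the pair and 0.05 ± 0.07 without it, and Sgk1, another glucocorticoid target, by 0.22 ± 0.14 and 0.05 ± 0.08. In the other 17 animals the glucocorticoid list had a median difference of 0.00, with 18 of 37 members above 0 and 0 called.

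**Figure D5:**
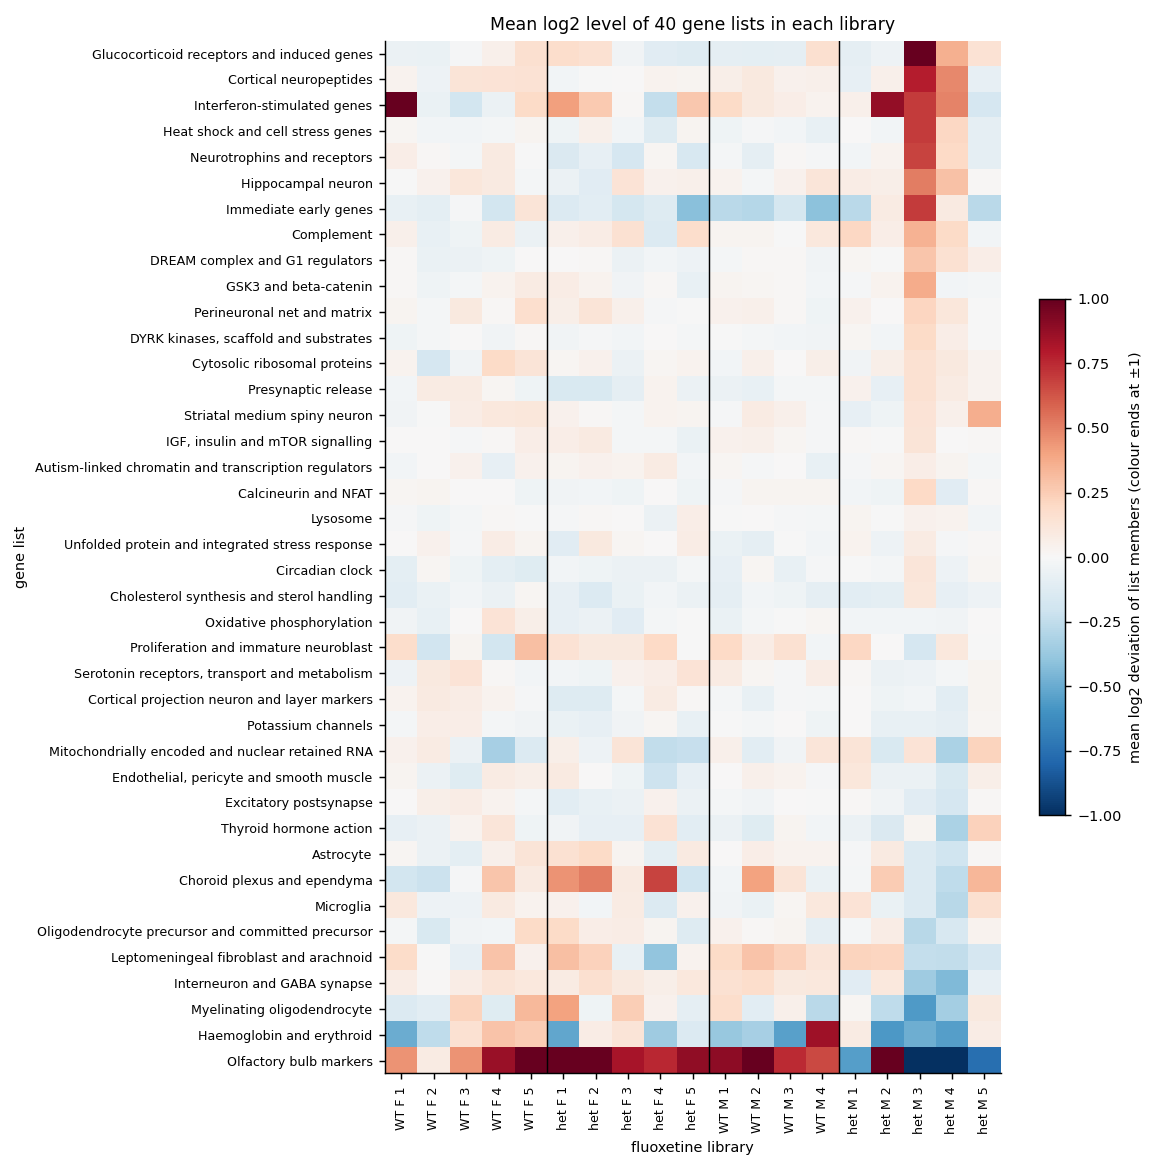
Mean log2 deviation of 40 gene lists (rows) in each of the 19 fluoxetine libraries (columns; WT, wild type; het, heterozygous; F, female; M, male), ordered by the mean of heterozygous males 3 and 4. The colour scale ends at ±1; those 2 libraries hold the extreme levels for the glucocorticoid list at the top and the olfactory bulb markers at the bottom.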

How the data were processed

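RNA of prefrontal cortex was measured from TruSeq stranded libraries of messenger RNA, per the labels' protocols. Salmon 0.11.2, R 3.6.0 and DESeq2 1.19.11 with GRCm38 are listed per the submitters' processing notes, without roles. The authors deposited a normalized signal per gene and library for 18088 genes (counts divided by size factors). Division by each library's step gave whole counts, within 0.01, for 100% of values. For 3 libraries the step lay too close to 1 for the values to show this. Gene symbols matched 18077 identifiers, from GENCODE on GRCm38. Replicate pairs differed by more than sampling noise (chi-square per gene 6.10 to 87.3 over 36 pairs).

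limma 3.58.1 (R 4.3.3, trend) was fitted to log2(value + 1), which understates changes of low genes, for genes with 10 or more in at least 4 libraries: sex and genotype over the 19 libraries, 4 group means for the sexes, and 12 group means over all 59 libraries for vehicle, lithium and drug differences. P-values were adjusted by Benjamini-Hochberg over all genes tested, threshold 0.05. Recovered counts were tested with edgeR 4.0.16 (quasi-likelihood) and DESeq2 1.42.0. The steps were checked on simulated data. A list level is the mean deviation of members' log2 values; lists had no test.

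The genes, lists and tests were chosen with earlier results of these data known. Named genes follow a rule: Dyrk1a; called genes that lay no lower than the median gene, filled up to 5 a direction by smallest p, without predicted genes; up to 6 members of smallest p per list; up to 6 per test of a difference; and a fixed set. Gm38226, Dlk1, Neurog2, Moxd1, Mxd4 and Pappa were chosen after their values were seen. Alternatives were other tools, filters, pseudocounts, scalings, weights, covariates, blocks and omitted libraries. A result that the rule names is not reported here.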

Additional observations from a re-analysis of the deposited data

Results flagged for a closer look

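In 15 of 248 checks of a group of 4 or 5 animals, the highest or lowest animal was separated from the others by more than Dixon's 95% limit. Chance alone marks about 1 group in 20, and these are given as values.

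Heterozygous male replicate 2 accounted for 3 of them: Calb2, a calcium-binding protein of interneurons and bulb cells, at 4369 normalised counts (others 524 to 942), Doc2g at 3022 (others 145 to 649) and Reln at 4107 (others 2042 to 2145). Heterozygous male replicate 3 had 750 counts of Sec14l2 (others 1016 to 1051) and 125 of Neurog2 (others 8.0 to 22.3). Heterozygous female replicate 5 had 327 counts of Fos, an immediate early gene (others 591 to 668), and an immediate early list level of -0.42 (others -0.18 to -0.10).

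Among wild-type males, replicate 2 had 765 counts of Rfx5 (others 678 to 692), replicate 3 had 682 of Pnrc1 (others 700 to 703), and replicate 4 had 1551 of Gabrd (others 1430 to 1438) and 3512 of Mxd4, a repressor of the MYC network (others 3242 to 3265), with a glucocorticoid list level of 0.16 (others -0.10 to -0.09). Among wild-type females, replicate 4 had 172 counts of Rec8 (others 108 to 126), replicate 2 had 190 of Tmem144 (others 154 to 162) and replicate 5 had 31.8 of Dlk1 (others 9.3 to 13.5).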

How the results depend on the processing

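The genotype count of 0 genes became 1 without heterozygous males 3 and 4, 2 with all 59 libraries fitted (Ucp2 and, lower, Moxd1) and 1 with both changes, 1 with array weights in 19 or 17 libraries, 1 with the olfactory bulb covariate and 3 with it in 17 (Rfx5, Pik3r3, Gm38226), and 3 and 4 with DESeq2, with and without the pair; 20 and 6 genes had no adjusted p there. Leaving out single libraries gave 0 to 1 (Pappa, without heterozygous male replicate 5). The count of 1 in females became 2 without the pair, 0 with all 59 libraries or with both changes, 2 with array weights, 2 with edgeR without the pair, and 2 with the covariate without the pair (0 to 2 leaving out single libraries). In males 0 became 1620 with all 59 libraries and 4 with array weights; in the difference between sexes 7 and 813; without the pair the fit of all libraries called 0 in both; and against vehicle 3173 with array weights. Leaving out single libraries gave 0 to 1221 in males, 0 to 1138 between sexes, 0 to 1277 against vehicle and 0 to 5 against lithium, the upper ends all without heterozygous male replicate 2, and 64 against vehicle without male replicate 5. The causes were not tested.

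The Dyrk1a difference was 0.23 with all 59 libraries and 0.11 with them but without the pair, neither passing limma's adjustment, and 0.15 to 0.25 leaving out single libraries. Its exact permutation p was 0.033 to 0.047 when a wild-type male was left out, and 0.00034 to 0.0069 for any other single library. With the replicate number as a block within sex, 0 genes were called and 1305 had an unadjusted p under 0.05. The numbers did not pair the animals: correlations of same-numbered deviations ran from -0.10 to 0.13, and 2 of 9 heterozygous samples correlated best with their own number. No difference that passed a test turned sign. Of 277 named genes, 231 kept 1 sign over all settings and 46 did not. Of those with values printed, Rcan1 ran from -0.10 to 0.04, Bdnf from -0.16 to 0.15, Arc from -0.06 to 0.16, Htr1b from -0.14 to 0.10, Htr2a from -0.08 to 0.03, Htr2c from -0.11 to 0.22 and Sgk1 from -0.01 to 0.29. At this number of animals the median 95% interval reached 0.186 log2 to either side with 19 libraries and 0.134 with 17, before adjustment. Array weights and DESeq2 without the pair, and edgeR and the covariate without it in each sex, were chosen after seeing the data.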
